A study of Mus musculus with 16 samples.

Results

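Amanitin-treated mouse two-cell embryos with a C3H maternal pronucleus were compared with amanitin-treated embryos in which that pronucleus was B6. The comparison uses 8 of the 16 arrays of the study, chosen by their titles, with 4 arrays in each group. In BBB embryos the maternal pronucleus, the paternal pronucleus and the ooplasm were all of strain B6. In BCB embryos the maternal pronucleus came from strain C3H, and the paternal pronucleus and the ooplasm were B6. Both groups compared here received α-amanitin, which the labels spell α-amantin, so the treatment is shared and the strain of the maternal pronucleus is the labelled difference. The other 8 arrays, 4 of untreated BBB and 4 of untreated BCB embryos, were read as a separate comparison. They also entered the limma fit, the filter on low values and the choice of probe set per gene. The labels give no dose, no duration, no number of embryos per array and no origin of the replicates. The spread behind each p-value below may therefore be technical. For limma it is the spread within all 4 groups.

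A fertilised egg holds a maternal and a paternal pronucleus, and exchanging a pronucleus between eggs places a genome of one strain in cytoplasm of another. Until the two-cell stage the mouse embryo lives largely on RNA stored in the oocyte, and its own genome becomes broadly active at that stage. α-Amanitin blocks RNA polymerase II, so in treated embryos most messenger RNA is stored or was made before the block took hold. The comparison asks which transcripts differ with the strain of the maternal pronucleus when new transcription is blocked.

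Values are intensities on a linear scale, and differences are on the log2(intensity + 16) scale, where 1 is a 2-fold difference and low intensities are understated. Correlations between arrays, taken across genes, were 0.9805 to 0.984 within BBB with amanitin, 0.9793 to 0.984 within BCB with amanitin and 0.9798 to 0.9838 between the groups. Within the untreated groups they were higher, at 0.9868 to 0.9909 in BBB and 0.9897 to 0.9919 in BCB. The median absolute deviation per array (log2) was 0.131 to 0.159 with amanitin and 0.1 to 0.119 without. The limma spread, pooled over all 4 groups, may therefore be too small for the treated groups, and so may the p-values below. On the first principal component of the 8 treated arrays (18.4% of variance), BCB arrays 1, 2 and 3 lay at 28.6, 13.7 and 6.52, above every BBB array (−14.8 to 1.71), and BCB array 4 lay at −12.9, among them. All 10 markers fixed for oocytes and two-cell embryos, among them Zp1, Zp2, Oosp1 and Nlrp5, lay at or above the array's 40th percentile on all 8 treated arrays, and their summed intensity was 25904 to 28446 in BBB and 24699 to 26026 in BCB. Cumulus and granulosa markers summed to 393 to 500 and 450 to 490 over the 14 on the array. Of these, Tnfaip6 and Amh were under the 40th percentile on every treated array. At or above it on all 8 were 5, namely Has2, Amhr2, Inha, Foxl2 and Cyp11a1. Amhr2 averaged 2248 in untreated embryos. Sperm markers summed to 162 to 193 and 170 to 196 over 11 genes, with Tnp2, Smcp and Crisp2 under that percentile on every treated array. Prm1, Prm2, Ldhc and Gapdhs, 4 of the 11, were at or above it on all 8. These sums therefore do not show that other cells were absent. Of 11 array measures none passed an exact two-sided permutation test after adjustment (lowest adjusted p 0.314), but with 4 arrays against 4 a single measure with fully separated groups could not have passed either, so this does not show that the groups were alike. The measures included hybridization controls (3114 ± 239 in BBB and 3228 ± 214 in BCB, SD, n = 4), poly-A controls (1581 ± 157 and 1667 ± 282) and 18S ribosomal RNA (5902 ± 629 and 6330 ± 630). The median intensity per array was 17.9 ± 0.846 and 19.5 ± 1.42.

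Few genes were called between the 2 kinds of treated embryo. The limma fit called 12 of the 15274 genes at an adjusted p under 0.05 (0.0786%), with 6 higher in BCB (0.0393%) and 6 lower (0.0393%). The genes higher in BCB were Mgll, Cfap52, Foxh1, Rmi1, Zc3h4 and 1 gene with a clone name, and the genes lower were Kif27, Arhgap8, Limch1, Mrfap1, Snhg10 and Fbxo15. The median difference over all genes was 0.02, the 1st percentile was −0.53, and the 99th was 0.57. The next counts are on the log2(intensity + 16) scale, which understates differences at low intensities. The 95% interval of the difference lay within 2-fold for 14982 genes (98.1%) and within 1.5-fold for 10721 (70.2%). Foxh1, at 6.52 in BBB and 27.1 in BCB on average, stayed under 2-fold on that scale (0.93). Differences of 2-fold or more on it were found in 6 genes, of which 4 passed the test. The gene with a clone name, 1 of these 4, passed the filter on low values through the 4 BCB arrays with amanitin alone, the group where it is high. An unadjusted p under 0.05 was reached by 1632 genes (10.7%), and the 4 arrays of one group lay above the 4 of the other in 559 genes (3.66%), with BCB above in 307 (2.01%) and BBB above in 252 (1.65%). The count depended on the setting. It was 0 with arrays scaled to their hybridization or poly-A controls and with only the 8 treated arrays in the fit, 1 with array weights and 2 with no intensity trend. With 1 array left out it was 43 without BCB array 4, 27 without BBB array 3, and 6 without BCB array 1, 2 or 3. The 43 included 9 of the 12 genes, the 27 included 10, and the sets of 6 included 4, 2 and 4.

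**Figure D1:**
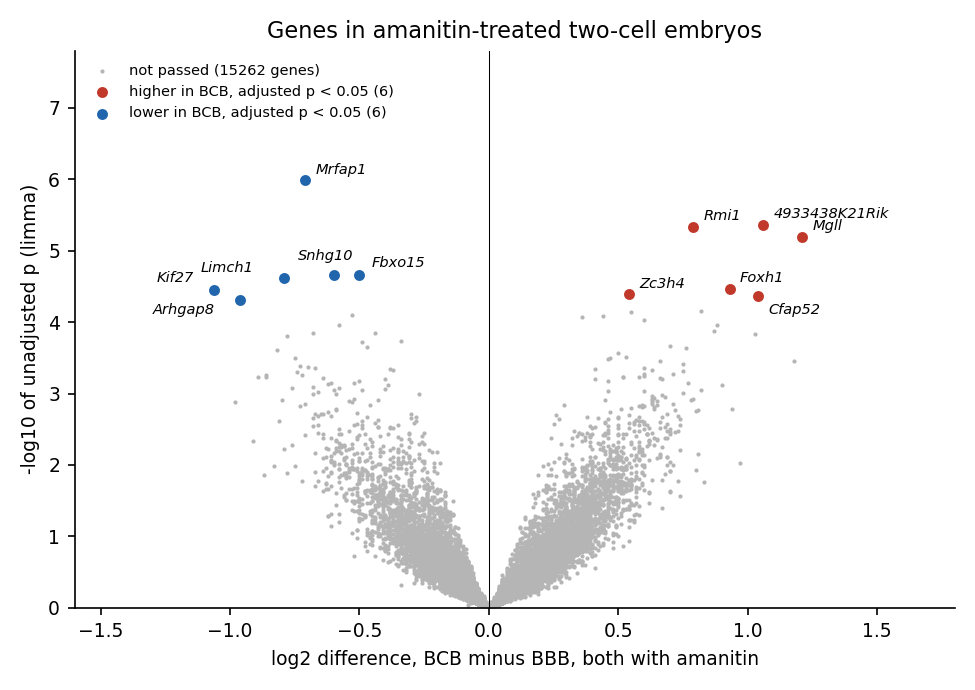
Difference between BCB and BBB embryos, both with amanitin, for each of 15274 genes (x axis, log2 scale) against −log10 of the unadjusted limma p (y axis); each point is 1 gene read from 1 probe set. The 6 genes higher in BCB (red) and the 6 lower (blue) with an adjusted p under 0.05 are named, Mgll lies farthest to the right at 1.21, and Mrfap1 has the smallest p at −0.71.

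The signal that separated the groups most came from 1 probe set of Pdxdc1, a gene for a protein with a pyridoxal-dependent decarboxylase domain. Probe set 1419327_at read 10.7, 5.9, 3.5 and 13.6 on the 4 BBB arrays with amanitin and 183.5, 202.9, 213.6 and 281.9 on the 4 BCB arrays. Every BBB array was near the bottom of the range and every BCB array lay far above the highest of them. The log2 difference was 3.28 (95% interval 2.94 to 3.62, limma adjusted p 2.06e-11). The same probe set separated the untreated embryos, at 6.2, 6.4, 12.1 and 6.5 in BBB against 456.2, 418.1, 361.8 and 359.4 in BCB, a difference of 4.12 (adjusted p 4.73e-14), and the interaction, which is the difference with amanitin minus that without, was −0.85 (adjusted p 0.181). It passed in all 21 alternatives run, with differences of 1.96 to 4.68, and it was the single probe set called when only the 8 treated arrays were fitted. The other probe sets of the gene did not show it. Probe set 1452705_at, the brightest, was at 1364 ± 23.5 in BBB and 1348 ± 183 in BCB (−0.03, 95% interval −0.26 to 0.20), 1428200_a_at at 113 ± 11.4 and 94.5 ± 28.5 (−0.26, −0.59 to 0.07), and 1436372_a_at at 68.1 ± 9.25 and 61.1 ± 10.5 (−0.13, −0.46 to 0.20). Read from its brightest probe set the gene is therefore not among the 12, and with the mean of its probe sets it passed. Pdxdc1 was singled out after its values were seen, and which part of the transcript each probe set reads was not analysed here.

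Of the 36 probe sets called with amanitin (0.113% of 31953 tested), 6 were also called in the untreated embryos, where 196 probe sets passed (0.613%), 120 of them higher (0.376%), and all 6 had the same direction in both. That is 16.7% of the probe sets called with amanitin and 3.06% of those called without. Besides Pdxdc1 these were probe sets of Mgll, Cfap52 and H2-D1, higher in BCB, and of Limch1 and Arhgap8, lower in BCB. The treated and untreated comparisons share no array. Both come from the same fit, with the same estimate of spread per probe set and the same filter, so they are not fully independent.

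Mgll encodes monoacylglycerol lipase, which splits the glycerol backbone from the last fatty acid of stored fat. With amanitin its intensity was 6.1, 2.3, 4.9 and 4.9 in BBB and 18.2, 35.8, 27.3 and 50.6 in BCB, and the groups did not overlap. The difference was 1.21 (95% interval 0.78 to 1.64, adjusted p 0.0203), against 2.52 without amanitin (43.6 ± 8.44 and 335 ± 92.8, SD, n = 4). A second probe set, 1450391_a_at, stood at 15.1 ± 1.93 and 25 ± 2.22 with amanitin (0.40, adjusted p 0.427) and at 29.8 ± 6.93 and 283 ± 77.6 without (2.67, adjusted p 9.02e-10). The call of the first probe set held in 15 of 22 alternatives. It ended without BCB array 2 (1.17, adjusted p 0.0511), with either control scaling, with a pseudocount of 64, with the mean of probe sets, with only the 8 treated arrays and with array weights. Every value with amanitin was low, and on the 4 BBB arrays the probe set was under the 40th percentile of the array.

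Cfap52 encodes a protein of the ciliary and flagellar axoneme. Its intensity was 1.4, 0.6, 3.7 and 8.1 in BBB with amanitin and 13.7, 34.7, 27.6 and 21.8 in BCB, again without overlap (1.04, 95% interval 0.62 to 1.47, adjusted p 0.0452). Without amanitin it was 14.4 ± 8.28 and 209.5 ± 44.4, a difference of 2.91, and the interaction of −1.87 passed (adjusted p 0.00243), so the difference was smaller with amanitin on this scale. The other tested probe set, 1432217_a_at, overlapped with amanitin at 3.95 ± 1.77 and 9.45 ± 9.27 (0.29, limma adjusted p 0.676). Without amanitin it passed (1.36, adjusted p 0.000954). The called probe set reached the array's 40th percentile on 3 of the 8 treated arrays, all of them BCB. Its call with amanitin held in 6 of 20 alternatives. With 1 array left out the call held in 3 of 8 fits, where the difference was 0.93 to 1.18 and the adjusted p 0.0355 to 0.118. It ended without BBB array 1 (0.0967), 2 (0.0884) or 3 (0.0513) and without BCB array 2 (0.1) or 3 (0.118).

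H2-D1 is a classical MHC class I gene, and MHC genes are known to differ between B6 and C3H mice. Its probe set 1450170_x_at read 1.5, 3.1, 2.2 and 2.3 in BBB with amanitin and 17.6, 35.3, 14.3 and 22 in BCB (1.04, adjusted p 0.0495), and 13.6 ± 5.43 and 115 ± 36.8 without (2.11, adjusted p 1.1e-06). The call with amanitin ended in each of the 8 fits with 1 array left out (adjusted p 0.0523 to 0.112). The probe set with the highest mean, 1425545_x_at, pointed the other way at 71.2 ± 38.6 and 34.9 ± 20.1 (−0.78, adjusted p 0.321), and the 5 probe sets other than the called one lay between −0.78 and 0.09. MHC class I genes share much of their sequence, and a probe set of this kind can bind related transcripts, so the value cannot be assigned to H2-D1 alone. H2-K1, another class I gene, was at 65.6 ± 12 and 66.5 ± 26.6 with amanitin (−0.05, 95% interval −0.46 to 0.37), while without amanitin it was 1149 in BBB and 506 in BCB on average (−1.16, adjusted p 0.00246). The interaction of H2-K1 did not pass (1.12, adjusted p 0.134). This probe set of H2-D1 was named after its values were seen.

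Limch1, a protein with LIM and calponin-homology domains that acts on non-muscle myosin, was lower in BCB in both comparisons. Its intensity with amanitin was 81.3, 110.6, 78.8 and 113.3 in BBB and 31.4, 48.6, 51.0 and 67.0 in BCB (−0.79, adjusted p 0.035), and the groups were apart. Its other probe sets were at −0.29 and 0.44 and did not pass. Without amanitin it was 1489 and 917 on average (−0.69, adjusted p 0.0235). Arhgap8, a GTPase-activating protein, was at 139.0, 58.5, 123.2 and 109.2 in BBB with amanitin and 30.6, 49.8, 60.1 and 44.0 in BCB (−0.96, adjusted p 0.0486). Here BBB array 2 fell within the BCB range, the 1 overlap among the 12 genes. Without amanitin Arhgap8 was at 605 and 338 (−0.82, adjusted p 0.047). The call of Limch1 held in 3 of 8 fits with 1 array left out (−0.91 to −0.64, adjusted p 0.0138 to 0.101), ending without BBB array 2 or 4 or BCB array 1, 2 or 3. That of Arhgap8 held in 1 of 8, without BBB array 2 (−1.19 to −0.83, adjusted p 0.00513 to 0.13).

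**Figure D2:**
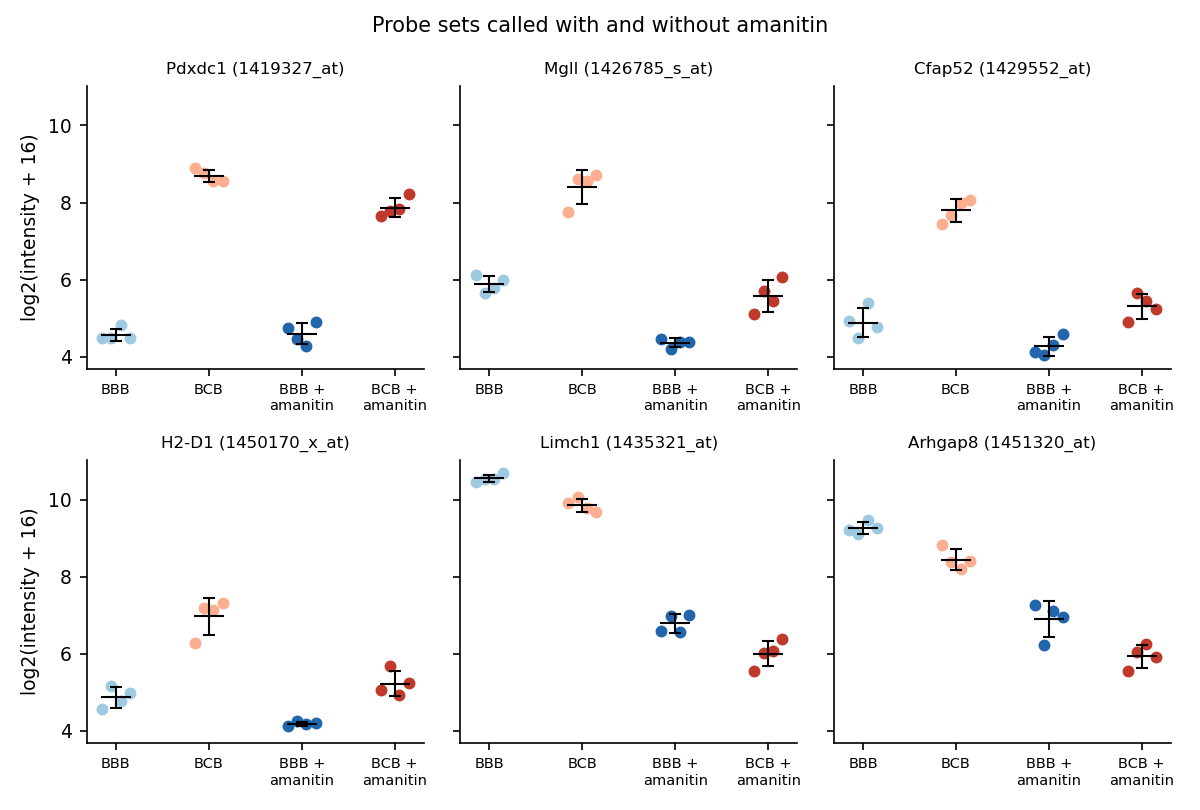
Values per array of the 6 probe sets called both with and without amanitin, on the log2(intensity + 16) scale; each point is 1 array, and bars give the mean ± SD of 4 arrays. Pdxdc1 keeps a difference of 3.28 with amanitin against 4.12 without, Mgll, Cfap52 and H2-D1 stand at 1.21, 1.04 and 1.04 against 2.52, 2.91 and 2.11, and Limch1 and Arhgap8 are lower in BCB in both.

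The other called genes did not pass in untreated embryos. Rmi1, a subunit of the complex that resolves recombination intermediates with the Bloom helicase, was at 772.6, 686.7, 701.3 and 708.5 in BBB with amanitin and 909.2, 1289.9, 1269.6 and 1661.3 in BCB. The lowest BCB array lay above the highest BBB array (0.79, 95% interval 0.52 to 1.07, adjusted p 0.0191). Without amanitin Rmi1 was at 615 ± 97.7 and 547 ± 28.9 (−0.15), and the interaction passed (0.95, adjusted p 0.0281). Its call held in 15 of 22 alternatives and ended without BCB array 3 (0.79, adjusted p 0.0517), with either control scaling, with the mean of probe sets, with only the 8 treated arrays, with no trend and with array weights. The 4 other probe sets of the gene lay between −0.32 and −0.12, which put the mean of its probe sets at 0.

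Mrfap1, which encodes a partner of MORF4-related chromatin proteins, was the gene with the smallest adjusted p. It read 1308.4, 1142.8, 1365.9 and 1454.7 in BBB with amanitin and 823.0, 988.8, 812.5 and 614.6 in BCB, so every BCB array was below every BBB array (−0.71, 95% interval −0.93 to −0.49, adjusted p 0.0109). Without amanitin it was level at 1646 and 1657 (0.01), and the interaction of −0.72 passed (adjusted p 0.0413). Its call held in all 8 fits with 1 array left out (−0.81 to −0.58, adjusted p 0.00155 to 0.039) and in 18 of 22 alternatives.

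Foxh1 encodes a forkhead factor that partners Smads in Nodal signalling. It was at 5.2, 3.4, 9.5 and 8.0 in BBB with amanitin and 30.3, 28.9, 32.3 and 16.8 in BCB (0.93, adjusted p 0.043), while untreated embryos had 22.8 and 18.9. Its 2 other probe sets were at −0.35 and −0.04, so the mean of the 3 was at 0.18. Zc3h4, a zinc finger protein that restrains non-coding transcription, read 444.8, 598.6, 505.8 and 402.2 in BBB and 730.1, 770.5, 602.8 and 738.7 in BCB (0.54, adjusted p 0.0443), with BCB array 3 only just above BBB array 2. The call of Foxh1 held in 2 of 8 fits with 1 array left out, without BBB array 3 or BCB array 4 (0.86 to 1.05, adjusted p 0.0186 to 0.114). That of Zc3h4 held in 3 of 8, without BBB array 2 or 3 or BCB array 3 (0.45 to 0.64, adjusted p 0.0114 to 0.104).

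Among the lower genes, Kif27, a kinesin linked to cilia, was at 66.1, 70.9, 81.0 and 145.7 in BBB with amanitin and 43.6, 21.0, 41.0 and 31.4 in BCB (−1.06, adjusted p 0.043). On the log2(intensity + 16) scale it was the 1 called lower gene past 2-fold. Arhgap8, at −0.96, had mean intensities of 107 in BBB and 46.1 in BCB with amanitin. Snhg10, a host transcript of small nucleolar RNA, read 425.7, 435.2, 367.5 and 434.7 against 263.2, 241.9, 338.6 and 242.2 (−0.60, adjusted p 0.0343), and its other probe sets were at −0.10 and 0.32. Fbxo15, an F-box gene known as a target of Oct4 in embryonic stem cells, read 411.0, 440.1, 338.7 and 459.5 against 258.8, 265.8, 313.1 and 304.7 (−0.50, adjusted p 0.0343). Its level in untreated embryos was 4242 in BBB and 4329 in BCB, so the difference concerned what remained of the signal with amanitin. With 1 array left out the call of Kif27 held in 4 of 8 fits (−1.17 to −0.84, adjusted p 0.038 to 0.092), that of Snhg10 in 3 (−0.70 to −0.55, 0.0192 to 0.0954) and that of Fbxo15 in 2 (−0.59 to −0.45, 0.00506 to 0.101). Kif27 lost it without BBB array 4 or BCB array 1, 2 or 3, Snhg10 without BBB array 1, 2 or 4 or BCB array 1 or 2, and Fbxo15 without any 1 of BBB arrays 1, 2 and 4 and BCB arrays 1, 2 and 3.

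With opposite differences in their called probe sets, Kif27 and Rmi1 lie close together on their chromosome. In the RefSeq gene order 2 protein-coding genes lie between them. Of 25 genes with a called probe set that could be placed, 12 pairs shared a chromosome, and this was the 1 pair with under 10 protein-coding genes between. The 2 genes between did not pass, with Hnrnpk at −0.30 (adjusted p 0.32) and the other, which has a clone name, at 0.40 (0.405). The 4 other probe sets of Rmi1 lay between −0.32 and −0.12, in the direction of Kif27. How often genes taken at random lie this close was not tested.

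The genes named next had not passed the test. They are the 10 higher and 9 lower genes with separated arrays and the smallest p, and 7 higher and 1 lower gene with overlapping arrays and a p as small were passed over. Among those with higher values in BCB, Alkbh5, an RNA demethylase, was at 714 ± 91.3 and 1046 ± 28.2 (0.55, adjusted p 0.0554), and Rad17, which loads the DNA damage checkpoint clamp, at 1159.9 ± 34.6 and 1595 ± 235 (0.44, 0.0554). Ubn1, of the HIRA histone chaperone complex, was at 1168 ± 93.8 and 1502 ± 91.2 (0.36, 0.0557). Tef, Cep295, Dact1, Otud7a, Cnksr3, Bcl2l14 and Il15 had differences of 0.47 to 0.87 and adjusted p-values of 0.0592 to 0.109. Among those with lower values, Ttk, the spindle checkpoint kinase, was at 2239 ± 125 and 1554 ± 226 (−0.53, 0.0554), Terb1, which tethers meiotic telomeres, at 1050.1 ± 128 and 698 ± 78.2 (−0.58, 0.0623), and Dhx15, a splicing helicase, at 1506 ± 144 and 1114 ± 151 (−0.44, 0.0688). Dnajb9, Hs3st1, Chd8, Lbx1, Son and Zfp213 had differences of −0.78 to −0.34 and adjusted p-values of 0.0688 to 0.106. Il15 passed the filter on low values through the 4 BCB arrays with amanitin alone. In the untreated embryos their differences were −0.27 to 0.26, and none passed (adjusted p 0.692 to 1).

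Counted by probe set, 26 were higher in BCB (0.0814%) and 10 lower. Of the 36, 28 had 1 symbol, 2 had several and 6 had none, and 34 had separated arrays. These 28 belong to 28 genes, of which 12 are the genes above and 16 are read from another, brighter probe set that did not pass. Of the 22 genes with more than 1 tested probe set, none had a second one called, and 13 had at least 1 of opposite sign. The genes in the following sentences were named after their values were seen. AU040320, a gene for a membrane protein, had the second smallest adjusted p of all probe sets, at 289.4, 401.3, 648.0 and 401.2 in BBB with amanitin and 1042.7, 831.0, 926.9 and 1011.2 in BCB (probe set 1426699_at, 1.16, adjusted p 0.00454). The groups were apart there, the call held in all 8 fits with 1 array left out, and the interaction passed (1.71, adjusted p 0.000247), with 177 ± 7.86 and 117 ± 14.5 without amanitin. Its brighter probe set was at 2629 ± 195 and 2836 ± 184 (0.11, 95% interval −0.05 to 0.27).

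Other called probe sets can be set beside the remaining probe sets of their genes. Srsf2, a splicing factor, was at 57.5 ± 14 and 136 ± 33.9 from 1427504_s_at (1.04, adjusted p 0.0191), and its other 3 probe sets were at −0.26 to −0.10. Supt16, a subunit of the histone chaperone FACT, was at 30.3 ± 10.5 and 73.6 ± 18.5 from 1449578_at (0.96, adjusted p 0.0418), and −0.09 from its other probe set. Bclaf1, a factor of transcription and splicing, was at 74.4 ± 23.2 and 161 ± 26.1 from 1436023_at (0.99, adjusted p 0.0203), and its other 4 lay at 0 to 0.48. Smg1, the kinase of nonsense-mediated decay, was at 281 ± 47.5 and 457 ± 31.5 from 1457262_at (0.68, adjusted p 0.0316), and its other 3 lay at 0.04 to 0.64. Ywhaq, a signalling adaptor, read above 0 in every probe set, with 1542 ± 92.4 and 2127 ± 323 from the called one (0.45, adjusted p 0.043) and the other 7 at 0.07 to 0.51, none of which passed. With 1 array left out the call held in 7 of 8 fits for Bclaf1 (not without BCB array 3), in 6 for Srsf2 (not without BCB array 1 or 3) and in 4 for Smg1 (not without BBB array 1 or 4 or BCB array 1 or 3). It held in 3 for Supt16, without BBB array 1 or 3 or BCB array 4, and in 3 for Ywhaq, without BBB array 2 or BCB array 2 or 4. The count of 36 became 103 without BCB array 4, 73 without BBB array 3, and 15, 23 and 12 without BCB array 1, 2 or 3. Probe sets with _s_at or _x_at in their name, among them those called for Mgll, Foxh1, Srsf2 and Ywhaq, may bind more than 1 related transcript. Many of the higher probe sets were dim, since 15 of 26 had a BCB mean under 100 and 8 had all 4 BBB arrays under the 40th percentile. Of the 36, 3 passed the filter only through the group where they are high, namely those of Lins1, the gene with a clone name among the 12 and a lower one with no symbol.

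**Figure D3:**
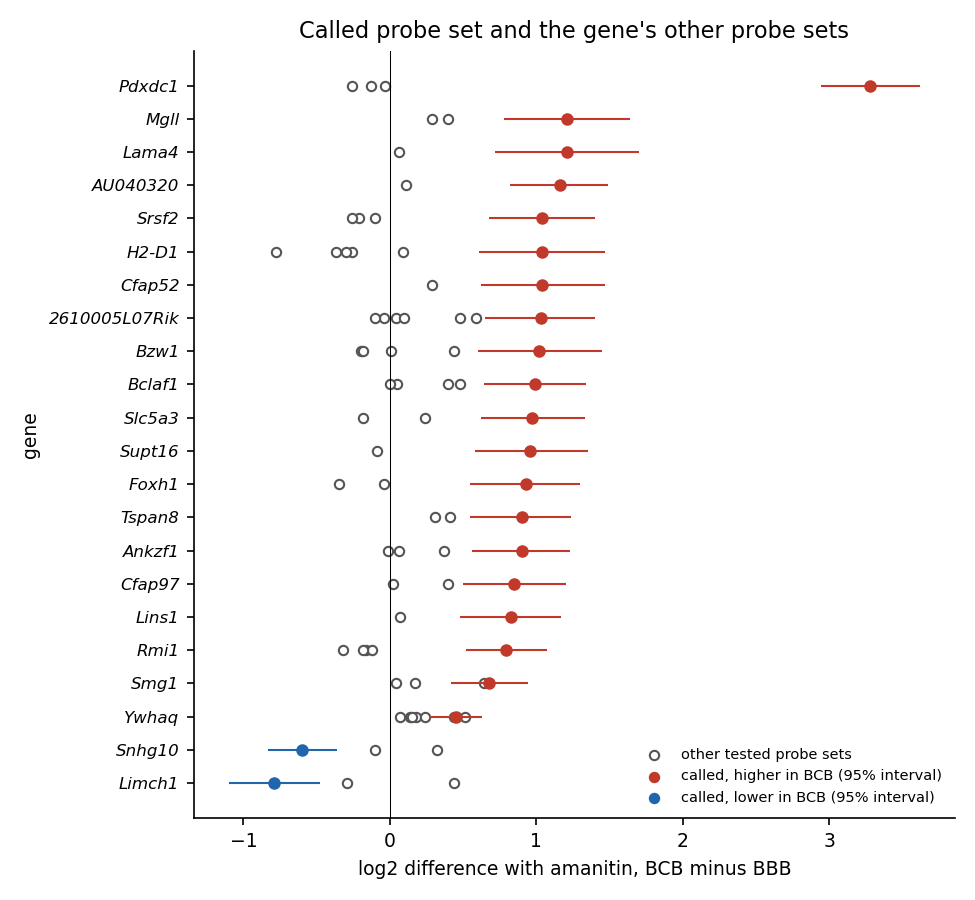
Log2 difference with amanitin, BCB minus BBB (x axis), for the called probe set of each of 22 genes (filled, with its 95% interval) and the gene's other tested probe sets (open circles). None of the open circles passed the test, and for Pdxdc1 the called probe set at 3.28 stands against −0.26 to −0.03 for the other 3.

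Genes called in untreated embryos were then read in the treated ones. There, 1079 genes had an unadjusted p under 0.05 (7.06%) and 100 passed after adjustment (0.655%), 59 higher (0.386%) and 41 lower (0.268%) in BCB. With amanitin 40 of the 59 stayed above 0 and 33 of the 41 below 0, or 73% with the same sign, beside 52.3% of all genes. Their median difference was 0.11 for the first set and −0.12 for the second, against 1.18 and −0.75 without amanitin. Across these 100 genes, which are not independent replicates, the correlation of the 2 differences was 0.60, and it was 0.0854 across all genes. The 100 genes were selected by their untreated difference, which widens its range, so the 2 correlations are not directly comparable. Of the 100, 4 passed with amanitin, namely Mgll, Cfap52, Limch1 and Arhgap8. At the level of probe sets 142 of 196 kept their sign (72.4%), beside 51.3% of all.

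Read the other way, 7 of the 12 genes called with amanitin had the same sign without it, and 20 of the 36 probe sets did, 13 of 26 higher and 7 of 10 lower. The interaction passed for 39 genes in all (0.255%), 10 above 0 (0.0655%) and 29 below (0.19%), of which Rmi1, Mrfap1 and Cfap52 are among the 12. It shares the treated arrays with the comparison itself. Among probe sets it passed in 82 (0.257%), 29 of them above 0 (0.0908%). These 82 included 12 of the 36, and in 11 of these, Cfap52 being the exception, the difference was larger with amanitin than without.

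**Figure D4:**
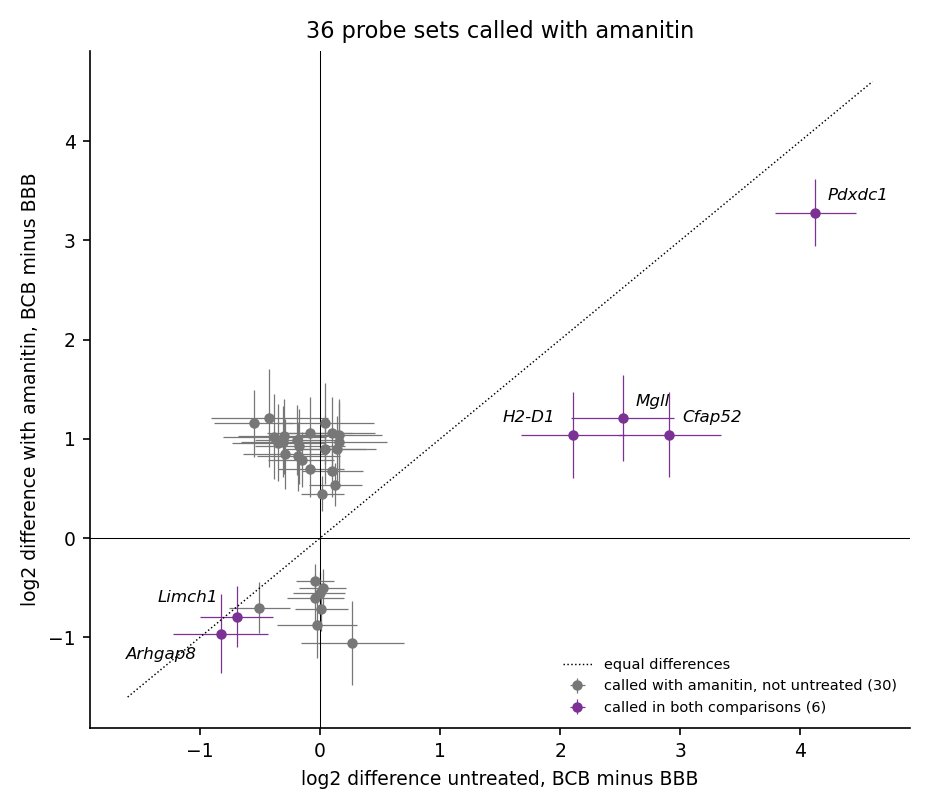
The 36 probe sets called with amanitin, with the log2 difference BCB minus BBB in untreated embryos (x axis) against that in treated embryos (y axis); bars are 95% intervals, and the dotted line marks equal differences. The 6 probe sets called in both comparisons (purple) are named, and the other 30 (grey) lie between −0.55 and 0.27 on the x axis.

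Counts of list members at an unadjusted p under 0.05 are to be read beside 10.7% of all genes tested, and the median beside 0.02. Neither list tied to stored maternal RNA held a called gene, and stored transcripts outside these lists are not covered. Of 52 oocyte and maternal-effect genes tested, none passed in limma, 5 had an unadjusted p under 0.05 (9.62%), the median difference was −0.06, and the 95% interval lay within 2-fold for all 52. Gdf9, an oocyte growth factor, was at 3573 ± 127 in BBB and 3338 ± 208 in BCB (−0.10), Zp3, a zona pellucida protein, at 747 ± 66.5 and 683 ± 25.6 (−0.12), and Mos, the kinase that holds the egg in meiotic arrest, at 46.2 ± 14.7 and 53.2 ± 14.4 (0.16). Spin1, the brightest member, was at 9949 ± 965 and 9871 ± 616 (−0.01). Zp2, chosen after its values were seen, was separated at 4215 ± 138 and 3467 ± 181 but did not pass (−0.28, adjusted p 0.211). Of 53 genes for storing and degrading maternal mRNA, none passed and 5 had an unadjusted p under 0.05 (9.43%, median −0.01), and Cnot7, a deadenylase, was at 8661 ± 587 and 8175 ± 709 (−0.08).

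The genes normally switched on at the two-cell stage were also without a call. Of 26 tested, none passed and 3 had an unadjusted p under 0.05 (11.5%, median 0.03), and the 95% interval lay within 2-fold for 24. Sp110, a nuclear body protein, was at 372 ± 51.5 and 378 ± 25.7 (0.03), and Hspa1a, the inducible heat shock protein, spread widely at 44.4, 0.9, 23.2 and 94.0 in BBB and 103.9, 28.5, 17.2 and 25.6 in BCB (0.19, 95% interval −0.61 to 0.98), so a 1.5-fold difference in either direction lies within its interval. Of 39 early embryonic regulators none passed (2 unadjusted, 5.13%, median 0.05), with Yap1, a Hippo effector, at 10423 ± 988 and 10346 ± 491 (−0.01).

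The same held for growth and housekeeping groups, in which limma called no gene. For 84 nucleolar and ribosome biogenesis genes 10 had an unadjusted p under 0.05 (11.9%, median 0.05), and the nucleolar chaperone Npm1 was at 1275 ± 181 and 1107 ± 127 (−0.20, adjusted p 0.492). For 45 cytosolic ribosomal proteins it was 7 (15.6%, median −0.04), and Rps2 was at 4427 ± 243 and 4921 ± 824 (0.14). For 75 oxidative phosphorylation genes it was 12 (16%, median 0.03) and for 43 proteasome genes 4 (9.3%, −0.05). The largest shares of any list were those of 47 chaperones with 10 (21.3%, median −0.04) and 70 cell cycle genes with 13 (18.6%, −0.01). Next came 55 DNA repair genes and p53 targets with 10 (18.2%, −0.01). Several other lists also lay above the share of all genes, and no such difference was tested. The brightest members of the oxidative phosphorylation, proteasome, chaperone and cell cycle lists, Cox6a1, Psme4, Dnaja2 and Pttg1, had differences of −0.04 to 0.09. Brca2, of homologous recombination, was at 4946 ± 508 and 4265 ± 211 (−0.21, adjusted p 0.293).

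Chromatin and parent-of-origin genes were examined because the exchanged pronucleus is the maternal one. None of 80 chromatin and DNA methylation genes passed (7 unadjusted, 8.75%, median 0), and Dnmt1, the maintenance methyltransferase, was at 562 ± 93.0 and 622 ± 82.7 (0.15, 95% interval −0.11 to 0.40). Suz12, a Polycomb subunit, was at −0.02. None of 51 imprinted genes passed (3 unadjusted, 5.88%, median 0.05), with Nap1l4 at 0. Xist, the RNA that silences an X chromosome, was dim at 23.8 ± 5.12 and 35.5 ± 7.88 (0.37, 95% interval −0.01 to 0.75, adjusted p 0.48).

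Genes that commonly differ between mouse strains had no call with amanitin when read from their brightest probe sets. H2-D1, in this list and in the MHC list below, was read at −0.78 (95% interval −1.37 to −0.18, limma adjusted p 0.321). Its dimmer probe set 1450170_x_at was called in the other direction, as described above. Of 18 genes tested in the strain list, none passed and 3 had an unadjusted p under 0.05 (16.7%, median −0.05). Nnt, the nicotinamide nucleotide transhydrogenase that is deleted in part in some B6 stocks, was at 23.5 ± 6.92 and 30.4 ± 11.2 (0.21, 95% interval −0.19 to 0.62), and Glo1, which detoxifies methylglyoxal, at −0.07 (95% interval −0.43 to 0.28). Ide was at 0.02. Of 33 antigen presentation and MHC genes none passed (1 unadjusted, 3.03%, median −0.05), nor did any of 37 interferon and nucleic-acid sensing genes (5 unadjusted, 13.5%, median −0.06), where Samhd1 was at 0.01 and Canx, in the former list, at −0.02.

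The 2 lists with a call each held 1 gene described above. Of 60 genes of glycolysis, lipid and cholesterol metabolism 1 was higher, Mgll, and none lower (median 0.01), and Hmgcs1, of cholesterol synthesis, was at −0.08. Of 51 cilia and flagella genes 1 was higher, Cfap52, and none lower (median −0.01). The gene Cfap97 was read there at 0.02 from its brightest probe set, while its dimmer 1420989_at was called (479 ± 162 and 847 ± 104, 0.85, adjusted p 0.0468), a call that held in 1 of 8 fits with 1 array left out, without BBB array 3. Both genes were known from earlier results of these data when the lists were written, so their place in a list is not independent evidence. Markers of other cells did not pass either. Of 17 cumulus and granulosa genes tested 2 had an unadjusted p under 0.05 (11.8%, median 0.03), with Amhr2 at 58.9 ± 17.3 and 59.4 ± 9.46, and of 21 sperm-carried transcripts 3 did (14.3%, median 0.04), with Odf2 at 3249.6 ± 223 and 2905 ± 209 (−0.16, adjusted p 0.482).

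How far a call depends on the setting can be read from the alternatives. No called probe set changed direction in 754 values under other settings, and 380 of these passed. The direction could hardly have changed. In 34 of the 36 called probe sets the groups were fully apart, so leaving out an array could not reverse the sign. The other settings refit the same arrays for probe sets chosen because they had passed. The 754 values are therefore not separate checks, and the unchanged direction does not show that a call is firm. Scaling each array to its hybridization controls or its poly-A controls left no gene called, against 1498 and 507 genes with an unadjusted p under 0.05, and left Pdxdc1 as the single called probe set in each. Fitting only the 8 treated arrays gave the same counts, with 1010 genes at an unadjusted p under 0.05. The share of higher calls moved with centring, since centring arrays on their medians gave 4 higher and 10 lower genes and 15 higher and 30 lower probe sets, and quantile normalization gave 4 and 6 genes and 19 and 16 probe sets. Under these scalings the median of all genes was −0.07 to −0.01.

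**Figure D5:**
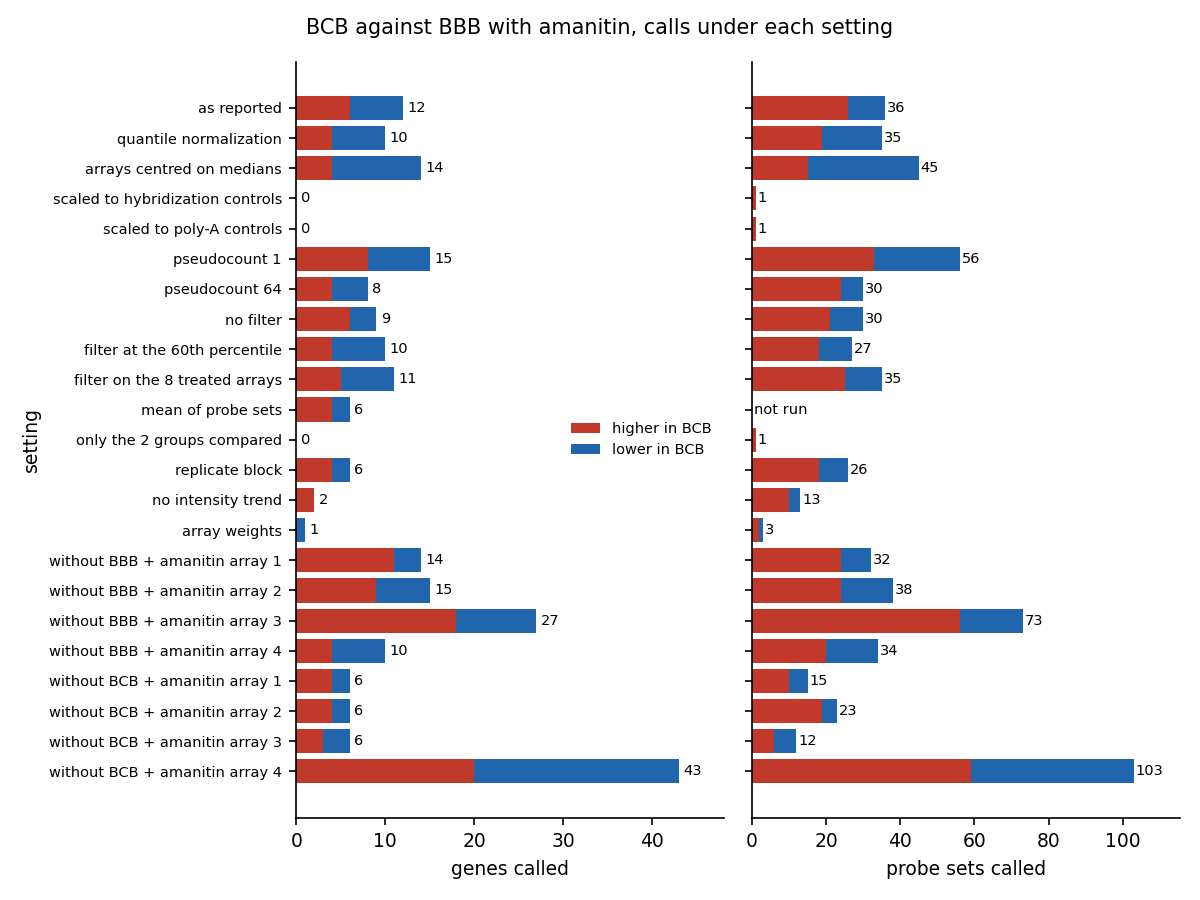
Number of genes (left) and probe sets (right) called between BCB and BBB embryos with amanitin under each setting (y axis), split into higher (red) and lower (blue) in BCB. The counts run from 0 to 43 genes and from 1 to 103 probe sets, and the largest follow from leaving out BCB array 4.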

How the data were processed

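Per the labels' protocols, RNA came from a Picopure extraction, and an ENZO kit added the biotin label. Deposited values are linear intensity values with 1 decimal, which the authors had scaled so that each array's mean without its highest and lowest 2% is 150. Which software and background correction were used is not given in the sources used here. Of 45037 probe sets that are not controls, 34945 had 1 symbol in the platform annotation, 932 several and 9160 none, and 34754 were matched to RefSeq (GRCm38.p6) by Entrez identifier. A probe set was tested where 4 or more of the 16 arrays put it at or above their 40th percentile (31953 probe sets), and 1449 genes tested reached it on fewer than 4 treated arrays. Each gene's value is that of its brightest tested probe set by the mean over 16 arrays. One limma 3.58.1 model (R 4.3.3) held all 16 arrays, with an intensity trend and Benjamini-Hochberg adjustment over all probe sets tested. Its spread per probe set takes in the untreated arrays, which varied less than the treated ones. Array measures had exact two-sided permutation tests, whose smallest p with 4 against 4 is 0.0286. The precision is limited by the number of arrays (median SE 0.166).

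The comparison, the lists and the settings were chosen with earlier results of these data known. Named genes are up to 15 called genes in each direction with separated arrays (then, where fewer passed, those with the smallest p, said not to have passed), for each of 20 lists the called members with the smallest p and the member with the highest mean, and Mgll, Cfap52, H2-K1, H2-D1, Nnt, Glo1, Xist, Zp3, Gdf9, Mos, Dnmt1 and Hspa1a. Arhgap8, whose arrays overlap, lies outside the rule, as do the list extremes and markers named. Clone names and probe sets without 1 symbol were counted but not named, other than AU040320. The alternatives were other scalings, pseudocounts of 1 and 64, other filters, the mean of probe sets, only the 2 groups, the replicate number as a block, no trend, array weights and each array left out. Probe sets were counted as an alternative chosen after seeing the data. A change with the setting is given for the same probe set, except with the mean of probe sets.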

Additional observations from a re-analysis of the deposited data

Results flagged for a closer look

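For 12 of the probe sets called or named, the difference between BCB and BBB embryos was itself different with and without amanitin in the interaction test. The interaction was −1.87 for Cfap52, 0.95 for Rmi1 and −0.72 for Mrfap1. By probe set it was 1.71 for AU040320, 1.63 for Lama4, 1.40 for Bzw1, 1.33 for 1 probe set of a gene with a clone name, 1.31 for Supt16, 1.28 for Slc5a3, 1.18 for Bclaf1, 1.15 for 1 probe set with no symbol and 1.14 for Cfap97 (1420989_at). Cfap52 differed less with amanitin, and the other 11 differed more. All 12 had been called with amanitin, so a large difference there was part of their selection. With amanitin the other probe sets of Lama4 (0.06), Bzw1 (−0.20 to 0.44) and Slc5a3 (−0.18 and 0.24) did not pass.

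In 6 of 170 groups of 4 arrays examined (3.5%), 1 array stood far from the other 3, which chance gives in about 5% of groups. These were Snhg10 in BBB array 3 with amanitin (367.5, against 425.7 to 435.2), Zfp213 in BBB array 1 (31.7, against 20.6 to 22.2), Mos in BBB array 2 (24.2, against 52.9 to 54.4) and Odf2 in BBB array 2 (3580.3, against 3107.1 to 3181.1). The other 2 were Hspa1a in BCB array 1 (103.9, against 17.2 to 28.5) and Cfap97 (1420989_at) in BCB array 4 (1001.2, against 780.2 to 806.7).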

How the results depend on the processing

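The number of genes called between BCB and BBB with amanitin was 12, and it was 0 scaled to the hybridization or poly-A controls, 0 with only the 2 groups in the fit (1010 genes with an unadjusted limma p under 0.05), 6 with the mean of probe sets, 2 with no intensity trend and 1 with array weights. Leaving out 1 array gave 6 to 43. The 36 probe sets became 1 with either control scaling and with only the 2 groups, 56 with a pseudocount of 1, 13 with no trend, 3 with array weights and 12 to 103 with 1 array left out. The 7 of 12 called genes with the same sign untreated became 0 of 0 with either control scaling, 0 of 1 with array weights, 3 of 8 with a pseudocount of 64, 3 of 6 with the mean of probe sets, 2 of 2 with no trend, and 2 (of 6, without BCB array 2) to 25 (of 43, without BCB array 4) with 1 array left out, so this count moved with the number of calls. With only the 2 groups this count and the interaction could not be fitted. The 39 genes of the interaction became 15 with a pseudocount of 1, 17 with the filter on the treated arrays and 28 to 43 with 1 array left out. The replicate numbers did not pair the samples (correlations of deviations between same-numbered arrays −0.0547 to 0.0504), and the replicate block gave 6 genes, all among the 12, 26 probe sets, 4 of 6 genes with the same sign untreated and 32 for the interaction. Of 1070 values of genes that had not passed, 24 passed under an alternative and none that passed reversed. These refits use the same arrays, so the unchanged direction is not a separate check. List medians ran from −0.19 to 0.16, and at most 2 members of a list were called. The cause of these changes was not tested. At dim intensities a fold depends on the pseudocount: Mgll was 2.58 with 1 and 0.49 with 64.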
